A study of Drosophila melanogaster with 9 samples.

Results

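A set of 9 genes that encode no odorant receptor was examined because all their libraries from *Orco* mutant dorsal organs lay above, or all lay below, the libraries from wild-type dorsal organs. They are *CG34337*, *CG14455*, *CG10467*, *wntD*, *p24-2*, *Nrk*, *CG1213*, *CG5863* and *Adk1*, 9 of 17421 genes in the deposited gene tables. The separation by genotype chose them, so their levels and fold changes are given as a description and carry no test. Their neighbours along the chromosome, taken by position, and the genes of related families and pathways were tested.

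The dorsal organ is the olfactory organ of the larval head. It houses the dendrites of olfactory receptor neurons (ORNs), in which the co-receptor Orco forms cation channels together with odorant receptors. RNA was measured by RNA-Seq in 5 *Orco* mutant and 4 wild-type samples of 20 dorsal organs each, isolated from larvae of the third instar. Both genotypes were w1118 and homozygous for Orco-Gal4 and UAS-mCD8-GFP, a membrane GFP driven in ORNs, and the mutants were also homozygous for the null allele orco1. The organs were picked by hand by their GFP, so a sample holds ORNs together with support cells and attached tissue. In such bulk samples fewer cells of a type and less RNA per cell cannot be told apart. The orco1 chromosome was carried by all mutant samples and by no wild-type sample, so the allele and any other difference between the 2 stocks cannot be told apart either.

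The libraries held 4090474 to 9157645 estimated counts in the *Orco* mutant and 4432839 to 7005182 in the wild-type. Mutant libraries 2 and 4 were the most alike pair within a genotype (Spearman correlation 0.93), against 0.55 to 0.76 for the other pairs. *Orco* RNA had 1, 16, 0, 3 and 0 counts in the 5 mutant libraries, against 1025, 1750, 1819 and 1784 in the 4 wild-type libraries, as the labels state. Neuron markers were detected in all libraries, 6 of 6 genes, with sums of 154 to 352 CPM in the mutant and 146 to 362 CPM in the wild-type. CPM here are counts scaled to library size with the TMM method of edgeR. Of the 7 marker lists only the sum of the ORN markers, *Orco* among them, did not overlap between the genotypes, at 0.122 to 43.4 CPM in the mutant and 307 to 515 CPM in the wild-type. *Orco* alone was at 229 to 385 CPM in the wild-type libraries, and no sum without it was taken. Of the 8 genes in this list 6 were tested. All mutant libraries lay below all wild-type libraries for 3 of them, *Orco* included. The sums overlapped for glia, support cells, hemocytes, muscle and fat body. For support cells the overlap was narrow, at 2909 to 6018 CPM in mutant libraries and 5267 to 12325 CPM in wild-type libraries. The median sums were 5153 and 9057 CPM, while 1 support cell gene had all mutant libraries above all wild-type libraries. Muscle markers ranged from 74.2 to 1367 CPM in mutant libraries and from 224 to 1863 CPM in wild-type libraries, and fat body markers from 0.984 to 175 CPM in mutant libraries and from 10.7 to 188 CPM in wild-type libraries. The part of these other tissues in the values below was not tested.

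The 9 genes fell into 2 patterns. Of these, 4 were on/off: *wntD* and *Nrk* had counts in every mutant library and none in any wild-type library, and *CG10467* and *p24-2* had counts in every wild-type library and none in any mutant library. The other 5, *CG34337*, *CG14455*, *CG1213*, *CG5863* and *Adk1*, had counts in every library of both genotypes and were lower in the mutant. All 9 passed the filter on low counts, the 4 on/off genes through 1 genotype alone. Among the 8160 genes that passed, 97 (1.19%) had all mutant libraries above all wild-type libraries and 219 (2.68%) had all of them below, and the 9 were picked from these 316 genes.

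**Figure D1:**
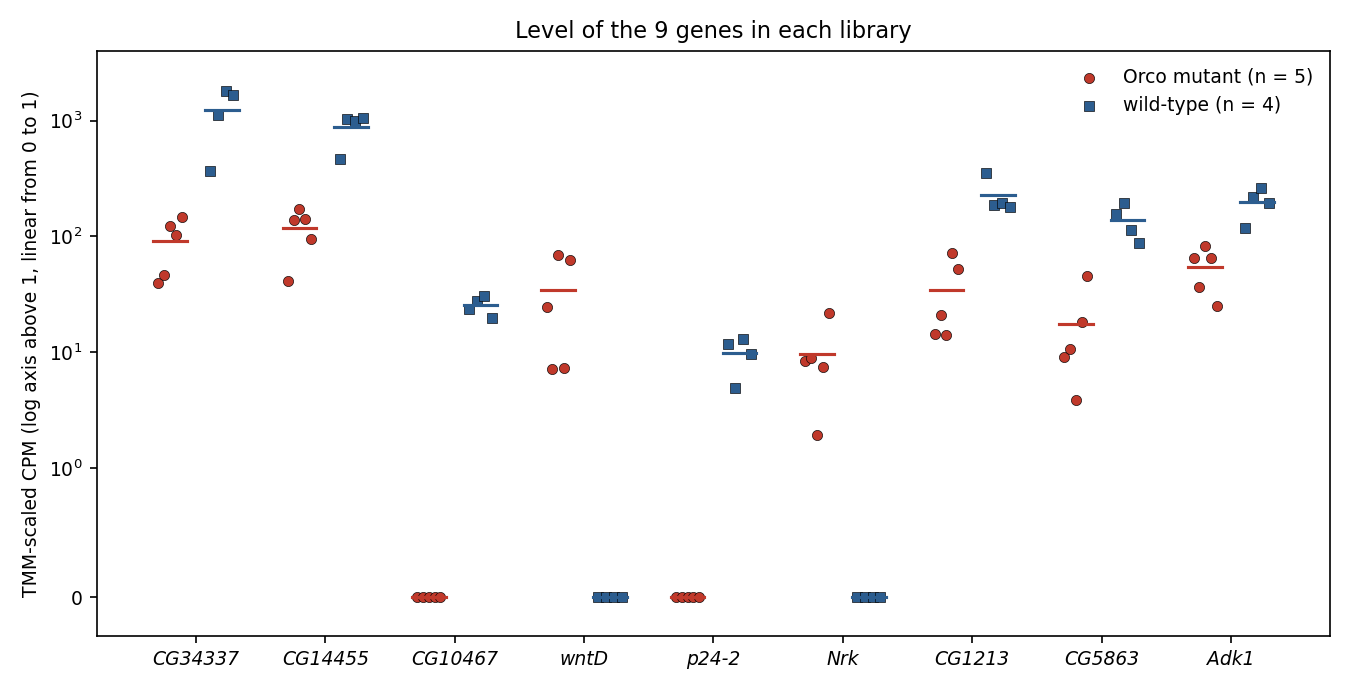
Level of each of the 9 genes in TMM-scaled CPM, on an axis that is logarithmic above 1 and linear from 0 to 1, with 1 point per library, *Orco* mutant (n = 5) left of wild-type (n = 4), and a line at each group's mean. *CG10467* and *p24-2* lie at 0 in all mutant libraries, *wntD* and *Nrk* at 0 in all wild-type libraries, and the 5 graded genes lie at lower but detectable levels in the mutant.

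Among the genes that were on in the mutant, *wntD* encodes a secreted Wnt protein. Wnt proteins are ligands that bind Frizzled-type receptors, and WntD is known in the fly embryo and in immunity as a feedback inhibitor of the Toll pathway, in which it keeps the transcription factor Dorsal out of the nucleus. The *wntD* gene lies at chr3R:13292052-13293198 (Release 6, minus strand) as a single exon of 1147 bases, and no annotated gene overlaps it. It had 201, 88, 250, 58 and 255 counts in the mutant libraries and 0 in each of the 4 wild-type libraries. In CPM its level was 24.5, 7.22, 68.9, 7.32 and 63.2 in the mutant libraries. The levels thus spanned a 9.54-fold range within the mutant, with libraries 2 and 4 low and libraries 3 and 5 high. A count of 0 allows up to 0.39 to 0.67 CPM in a wild-type library. The mean mutant level was 34.2 ± 29.95 CPM (SD, n = 5). With counts pooled over each group and a floor of 3 counts over the wild-type group, the mutant level was at least 178-fold higher. This limit leaves out the spread between libraries, of which the lowest in the mutant was at 7.22 CPM.

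*Nrk*, the neurospecific receptor kinase, encodes a receptor tyrosine kinase of the Ror type, a family whose extracellular part resembles that of Wnt receptors and which is known from the nervous system. The gene lies at chr2R:13160063-13163484 on the plus strand, with 1 transcript of 3235 bases. Its counts were 69, 110, 7, 59 and 89 in the mutant libraries and 0 in each wild-type library. The mean mutant level was 9.77 ± 7.42 CPM (SD, n = 5). The pooled mutant level was at least 69.7-fold above the floor of the wild-type group, a limit that leaves out the spread between libraries. Mutant library 3, the smallest, was the lowest at 1.93 CPM and library 5 the highest at 22.1 CPM, whereas *wntD* was highest in library 3. For single libraries the limit is far lower, as a count of 0 allows up to 0.67 CPM in wild-type library 1. *Nrk* is overlapped by 2 genes. *ND-MWFE*, a complex I subunit gene on the same strand, shares 128 exon bases with it and had counts in all libraries, and *CG15870* on the opposite strand shares 122 bases and had 4 counts in all mutant libraries together and 0 in the wild-type.

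Among the genes that were on in the wild-type only, *CG10467* encodes an enzyme related to aldose 1-epimerase, which converts the anomers of galactose and glucose into each other. It lies at chr3L:6093204-6094747 on the minus strand as a single exon of 1544 bases. It had 0 counts in each of the 5 mutant libraries, against 106, 157, 146 and 152 counts in the wild-type libraries. The wild-type level of 25.5 ± 4.86 CPM (SD, n = 4) varied least of the 7 genes detected in the wild-type, with a 1.56-fold range. A count of 0 allows up to 0.246 to 0.827 CPM in a mutant library, and over the group *CG10467* was at least 299-fold lower in the mutant. *CG10469*, which overlaps it by 110 exon bases on the same strand, was also at 0 in all 5 mutant libraries, against 0, 11, 62 and 65 counts in the wild-type libraries. It did not pass the filter, and it is named here because of its position, after its values were seen.

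*p24-2* encodes a p24 protein, a membrane protein of the vesicles that carry cargo between the endoplasmic reticulum and the Golgi. It lies at chr3R:9687402-9692794 on the minus strand. It had 0 counts in each mutant library, against 53.3, 27.5, 62.1 and 73.8 estimated counts in the wild-type libraries, a wild-type level of 9.88 ± 3.58 CPM (SD, n = 4) and at least 115.3-fold lower in the mutant. These counts are shared with another gene. The longer transcript, p24-2-RB, has the same exons as Unc-115b-RE of the neighbouring gene *Unc-115b*, and both held the same estimated counts in every library, so their reads cannot be told apart. That transcript held 34.0, 6.20, 41.97 and 54.8 counts in the wild-type libraries under each gene's name and 0 in all mutant libraries. The short transcript p24-2-RA, 830 bases in 2 exons, had 19.3, 21.3, 20.1 and 19.0 counts in the wild-type libraries and also 0 in all mutant libraries. Of the 3554 exon bases of *p24-2*, 3535 (99.5%) also lie in exons of *Unc-115b*. The counts of p24-2-RA are therefore an estimated split of reads that fall mostly in shared bases. All transcripts of both genes together held 0, 20.3, 13.3, 0 and 8.70 counts in the mutant libraries, against 104, 59.4, 128 and 129 in the wild-type libraries. Summed over the locus the libraries therefore did not overlap, but 3 mutant libraries had counts there, all under the transcripts Unc-115b-RA and Unc-115b-RD.

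Over all genes, 5 had counts in every mutant library and none in the wild-type, and 8 had the reverse. The other 3 and 6 of these genes did not pass the filter. The lowest mutant library had 58 counts of *wntD* and 7 of *Nrk*, and at most 4 of the other 3. The lowest wild-type library had 106 counts of *CG10467* and 27.5 of *p24-2*, and at most 4 of the other 6.

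The 2 most abundant of the graded genes, *CG34337* and *CG14455*, are short genes to which the annotation gives no name. *CG34337* lies at chrX:7417253-7417693, with a transcript of 371 bases in 2 exons, and had 325, 572, 447, 815 and 592 counts in the mutant libraries, against 1640, 6347, 8429 and 12858 in the wild-type libraries. Its mean level was 91.8 ± 47.1 CPM in the mutant and 1236 ± 647 CPM in the wild-type (SD, n = 5 and 4), a log2 fold change of -3.75 (SE 0.52). Among tested genes it stood at the 88.7th percentile of level in the mutant and at the 99.3rd in the wild-type. The wild-type level itself ranged 4.87-fold, with library 1 at 366 CPM and the other three at 1125 to 1783 CPM.

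*CG14455* lies at chr3L:22686360-22687087, with a transcript of 663 bases in 2 exons. Its counts were 341, 1680, 623, 1131 and 383 in the mutant libraries, against 2094, 5832, 4692 and 8135 in the wild-type libraries. The mean level was 118 ± 50.6 CPM in the mutant and 888 ± 282 CPM in the wild-type, a log2 fold change of -2.91 (SE 0.41). As with *CG34337*, mutant library 1 was the lowest mutant library and wild-type library 1 the lowest wild-type library. Wild-type library 1 also had the highest share of counts in genes named as rRNA, 53.8%, against 33.3% to 39.8% in the other wild-type libraries and 35.8% to 47.3% in the mutant libraries. Per length, both genes stayed among the higher of the 9 in each genotype, at 248 and 178 CPM per kilobase in the mutant and 3332 and 1339 CPM per kilobase in the wild-type.

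*CG1213* encodes a protein of the sugar transporter type. It lies at chr3R:5841170-5846568, 428764 bases from *Orco*. It had 117, 255, 51, 567 and 210 counts in the mutant libraries, against 1568, 1052, 923 and 1368 in the wild-type libraries. Its mean level was 34.6 ± 25.9 CPM in the mutant and 227 ± 82.0 CPM in the wild-type (log2 fold change -2.72, SE 0.53). The mutant libraries split, with libraries 4 and 5 at 71.5 and 52.0 CPM and the other three at 14.1 to 20.9 CPM.

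*CG5863* lies at chr3R:17411108-17412680 as a single exon of 1573 bases. It had 75, 129, 14, 145 and 185 counts in the mutant libraries, against 702, 1098, 542 and 679 in the wild-type libraries. The mean level was 17.5 ± 16.6 CPM in the mutant and 139 ± 46.9 CPM in the wild-type (log2 fold change -2.98, SE 0.62). Its mutant libraries were the most uneven of the 7 genes detected in the mutant, with an 11.9-fold range and the lowest value, 3.86 CPM, in library 3.

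*Adk1*, called Ak1 in the current annotation, encodes an adenylate kinase, which interconverts ATP, ADP and AMP. It lies at chr3L:12200322-12204082. It had 535, 444, 300, 512 and 101 counts in the mutant libraries, against 525, 1236, 1249 and 1484 in the wild-type libraries. The unscaled counts thus overlapped, mutant library 1 being above wild-type library 1, while the other 8 genes were separated in unscaled counts too. In CPM *Adk1* ranged from 25.0 to 82.7 in the mutant and from 117 to 264 in the wild-type, with means of 54.8 ± 23.5 and 198 ± 61.6 CPM (log2 fold change -1.86, SE 0.40).

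*Adk1* was the member nearest to the border of the rule. Its lowest wild-type library was 1.42 times its highest mutant library, against 1.92 times for *CG5863*, 2.48 for *CG1213*, 2.50 for *CG34337* and 2.72 for *CG14455*. Just outside, *Jwa* had mutant libraries of 95.7 to 142.9 CPM and wild-type libraries of 142.8 to 204.8 CPM. Ranked by this gap among the 316 genes that do not overlap, with those at 0 in a genotype first, the 5 graded genes stood between the 31st and the 97th place, so genes that are not among the 9 had wider gaps than these.

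The transcript estimates were a further description of the same counts. Of the 9 genes, 6 had a single transcript in the deposited tables. For *Adk1* the shares were alike in both genotypes: Adk1-RA held 63.2% of the gene's counts on average in the mutant (45.0% to 73.0%) and 65.3% in the wild-type (60.3% to 68.3%). For *CG1213* the transcript CG1213-RB held 40.0% on average in the mutant, with 0% in libraries 1 and 3 and at most 73.9%, and 80.3% in the wild-type, with 64.1% to 95.2%. The ranges overlapped. CG1213-RA was estimated at 0 in wild-type libraries 3 and 4 and had counts in all 5 mutant libraries. CG1213-RD was at 0 in all libraries.

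**Figure D2:**
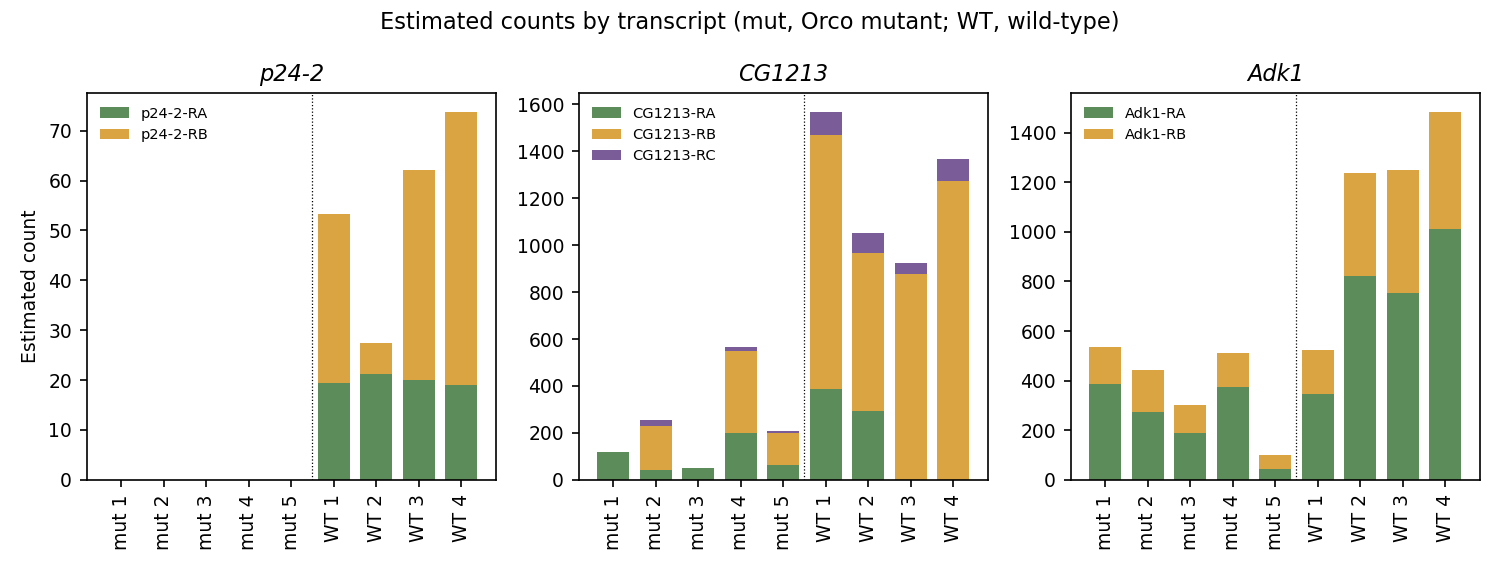
Estimated counts per transcript, unscaled, stacked by library for the 3 genes with counts in more than 1 transcript, with mutant libraries left of wild-type libraries. The p24-2-RB part of *p24-2* is the transcript that equals Unc-115b-RE; CG1213-RB dominates in the wild-type libraries, and the *Adk1* shares differ little between libraries other than mutant library 5.

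The genes beside the 9 along each chromosome arm were compared next. They were the 2 tested genes on each side, 36 in all. Of these 7 had libraries that do not overlap, 1 higher and 6 lower in the mutant, or 19.4%, against 3.87% of all tested genes in either direction. One of the 7 is *Unc-115b*, which shares reads with *p24-2*, and without it the share was 6 of 35 (17.1%). For comparison, 6.68% of the neighbours of all 316 genes that do not overlap did not overlap themselves. None of the 36 passed the edgeR quasi-likelihood test over all genes (lowest Benjamini-Hochberg adjusted p = 0.379), where 0% of tested genes passed as higher and 0.0368% as lower. At an unadjusted p under 0.05 there were 7 of 36 (19.4%), against 405 of all 8160 tested genes (4.96%). These 7 are not all the same genes as the 7 with separated libraries. DESeq2 called 4 of 36, *CG32726*, *CG33771*, *CG14456* and *PK2-R1*, against 104 of the 9665 genes to which it gave an adjusted p (1.08%).

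The neighbours that separated lay beside 4 of the 9 genes. *CG34337* stood in a run of 4 consecutive tested genes on the X chromosome, *CG42246*, *CG42704*, *CG34337* and *CG32726*, which all had every mutant library below every wild-type library. It was the longest such run among tested genes. *CG32726*, 7526 bases away, had 470, 903, 884, 2024 and 1424 counts in the mutant libraries, against 3512, 5984, 3012 and 5958 in the wild-type libraries (log2 fold change -2.05, SE 0.48, edgeR adjusted p = 0.379). *CG42246* had 91.0 ± 57.9 CPM in the mutant and 257 ± 67.4 CPM in the wild-type (log2 fold change -1.50, SE 0.45, edgeR adjusted p = 0.654). *CG42704* was near the limit of detection, with 0 to 18 counts in the mutant and 13 to 36 in the wild-type. Its unscaled counts thus overlapped, and in CPM its highest mutant library was at 2.19 and its lowest wild-type library at 2.21. The run of 4 rests on this small gap. The next gene, *CG11368*, 34515 bases away, had a log2 fold change of -1.99 (SE 0.57), with libraries that overlapped.

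*CG14456*, 134 bases from *CG14455*, was the most abundant of these neighbours. It had 2956, 37437, 17488, 14612 and 16082 counts in the mutant libraries, against 51107, 71785, 58650 and 140526 in the wild-type libraries (log2 fold change -2.28, SE 0.55, edgeR adjusted p = 0.394). Mutant library 1 was its lowest too, at 360 CPM, as it was for *CG14455* and *CG34337*. On the other side, *CG33771*, 36371 bases away, had 26, 42, 1, 10 and 0 counts in the mutant libraries, against 134, 131, 157 and 99 in the wild-type libraries (log2 fold change -3.88, SE 1.15, edgeR adjusted p = 0.654).

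The neighbour that was higher in the mutant was *PK2-R1*, 45131 bases from *wntD*, which encodes a receptor for pyrokinin neuropeptides. It had 131, 515, 463, 258 and 82 counts in the mutant libraries, against 1, 0, 21 and 0 in the wild-type libraries, with no overlap (log2 fold change 5.37, SE 1.45, edgeR adjusted p = 0.538). *CG32473*, which lies between them among tested genes, and both tested genes on the other side of *wntD* had overlapping libraries. Beside *CG10467*, *Nrk*, *CG1213*, *CG5863* and *Adk1* all neighbours overlapped. The 4 beside *CG5863* had log2 fold changes of 1.68 to 2.55, against -2.98 for *CG5863* itself.

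**Figure D3:**
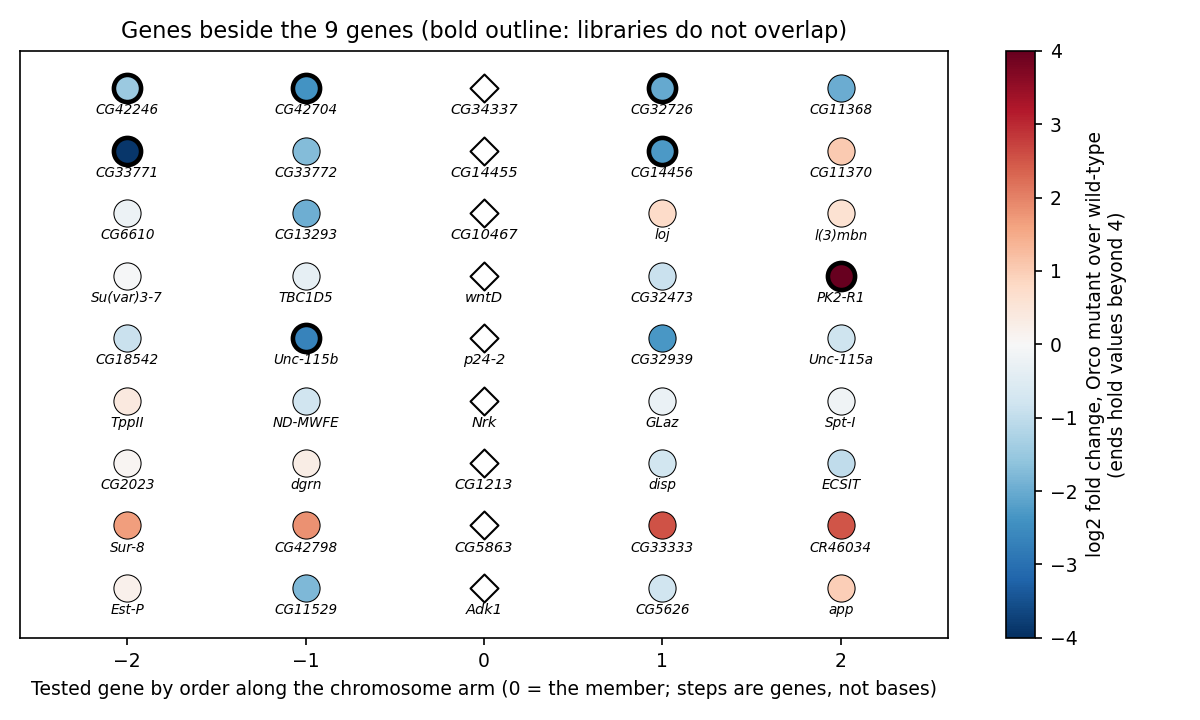
The 2 tested genes on each side of each of the 9 genes, in their order along the chromosome arm, coloured by log2 fold change (*Orco* mutant over wild-type), with a bold outline where the libraries do not overlap. The outlined genes are 3 beside *CG34337*, 2 beside *CG14455*, *Unc-115b* beside *p24-2* and *PK2-R1* beside *wntD*.

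Of the 9 genes, 7 lie on chromosome 3, the chromosome of *Orco*, which holds 43.7% of the tested genes. Libraries did not overlap for 4.27% of the tested genes on chromosome 3 and for 3.64% of those on the other chromosomes. Within 2 Mb of the start of *Orco*, 7 of 230 tested genes other than *Orco* did not overlap (3.04%), 2 higher and 5 lower, and *CG1213* is 1 of them. On 3R, *p24-2*, *wntD* and *CG5863* lie 4274996, 7879646 and 11998702 bases from *Orco*.

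Transcript length moved with the direction of the separation across all genes. The median length was 1054 bases for genes with all mutant libraries lower and 2450 bases for those with all mutant libraries higher, against 1938 bases for all tested genes. In the shortest of 10 length bins of equal size, which holds *CG34337* and *CG14455*, 9.34% had all mutant libraries lower, and the median log2 fold change was -0.39. In the bins that hold *wntD* and *Nrk*, 1.37% of genes had all mutant libraries higher in each. Genes under 1 kb took 32.9% to 43.8% of the protein-coding CPM in the mutant libraries and 39.9% to 48.4% in the wild-type libraries. Each length bin was also centred on its median deviation in each library, an alternative chosen after seeing the data. After centring, 8 of the 9 genes did not overlap, and *Adk1* overlapped. The genes were chosen for their separation, so this is a description, and the part of transcript length in it was not tested. The difference in mean log2 CPM was then -3.24 for *CG34337* and -2.53 for *CG14455*, against -3.69 and -2.99 without centring. The neighbours with all mutant libraries lower, other than *Unc-115b*, are also short, at 454 to 846 bases. They lie in the 2 shortest bins, where 9.34% and 4.63% of genes had all mutant libraries lower. Separated neighbours numbered 6 after centring, against 7 without it.

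**Figure D4:**
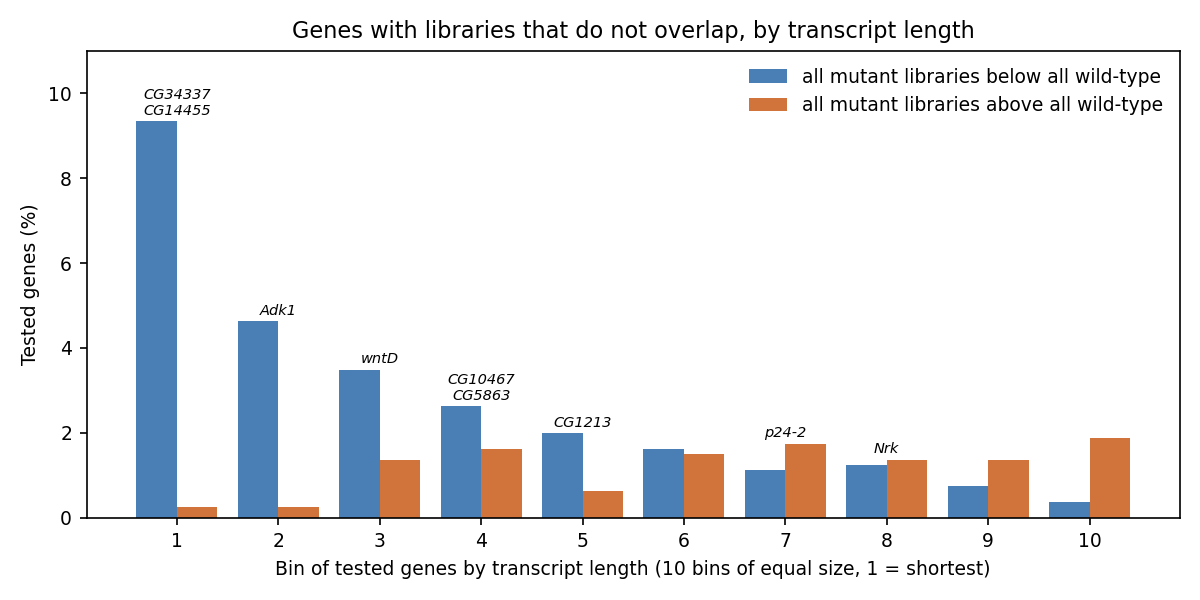
Percent of tested genes whose mutant libraries all lie below (blue) or all above (orange) the wild-type libraries, by transcript length in 10 bins of equal size, with the names of the 9 genes over their bin. The share with lower mutant libraries is 9.34% in the shortest bin and 0.375% in the longest.

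The families and pathways of the named members were then examined for other genes that differed. The 7 lists held 70 genes besides the 9, and 47 of them were tested. None passed the edgeR test over all genes (lowest adjusted p = 0.858). At an unadjusted p under 0.05 there were 5 of 47 (10.6%), against 4.96% of all tested genes. DESeq2 gave an adjusted p to 52 of the 70 and called 2, *otk2* and *CG1208*, against 1.08% of all genes, and neither of these had passed the filter of edgeR. Libraries did not overlap for 2 of the 47 (4.26%), against 3.87% of all tested genes. Their median log2 fold change was -0.11, against -0.0014 for all tested genes.

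Of the ligands, *Wnt2*, *Wnt5* and *Wnt6* were tested and 0 of 3 passed, with *Wnt2* at 28.4 ± 6.95 CPM in the mutant and 34.9 ± 15.4 CPM in the wild-type (adjusted p = 0.997). *wg*, the founding Wnt ligand, had counts in mutant libraries 2, 4 and 5 (1.89, 5.42 and 28.5 CPM) and none in the wild-type libraries, and was not tested. It was thus at 0 in mutant libraries 1 and 3, in which *wntD* had 201 and 250 counts. Of 9 tested receptors of Wnt and Ror type 0 passed, and the median log2 fold change was -0.11. The lowest p was that of *drl*, a Ryk-type receptor, at 18.4 ± 11.1 CPM in the mutant and 7.08 ± 5.53 CPM in the wild-type (adjusted p = 0.997). *otk2* had 44, 20, 1, 12 and 18 counts in the mutant libraries, against 0, 0, 1 and 0 in the wild-type libraries, too few for the filter.

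In the Toll pathway 0 of 11 tested genes passed. *dl*, which encodes Dorsal, had the lowest p, at 83.3 ± 51.5 CPM in the mutant and 31.3 ± 14.9 CPM in the wild-type (log2 fold change 1.41, SE 0.52, edgeR adjusted p = 0.978), with libraries that overlapped.

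In the p24 family 0 of 6 tested genes passed, and the 2 genes of all lists whose libraries did not overlap, *eca* and *bai*, belong to it, both with all mutant libraries below all wild-type libraries in CPM. Both encode p24 proteins that are known in the fly to act together in secretory transport. *eca* had 51.8, 72.4, 26.2, 90.8 and 71.9 CPM in the mutant libraries, against 139, 140, 106 and 138 CPM in the wild-type libraries (log2 fold change -1.06, SE 0.37, edgeR adjusted p = 0.858). It ends 1925 bases from *p24-2*. *bai* had 80.5 ± 18.9 CPM in the mutant and 131 ± 7.33 CPM in the wild-type (log2 fold change -0.70, SE 0.29, edgeR adjusted p = 0.980). The unscaled counts of both genes overlapped, for *bai* at 236 to 956 in the mutant and 596 to 924 in the wild-type. At 946 bases for *eca* and 807 for *bai*, both lie in the second shortest length bin. In that bin 4.63% of genes had all mutant libraries lower.

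Of the sugar transporter-like genes 8 were tested and 0 passed, with *CG10960* lowest in p (15.98 ± 11.3 CPM in the mutant and 51.6 ± 32.7 CPM in the wild-type, adjusted p = 0.978). *CG1208*, not tested, showed that a large summed count need not be shared by the libraries of a genotype: it had 1313 and 982 counts in mutant libraries 1 and 3 and 0 in the other three and in all wild-type libraries. Of the galactose genes 5 were tested and 0 passed, with *Galt* lowest in p at 32.8 ± 36.8 CPM in the mutant and 13.8 ± 2.68 CPM in the wild-type (adjusted p = 0.997). Of the nucleotide kinases 5 were tested and 0 passed, with *Adk3* lowest in p at 11.9 ± 3.58 CPM in the mutant and 3.85 ± 5.12 CPM in the wild-type (adjusted p = 0.997).

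**Figure D5:**
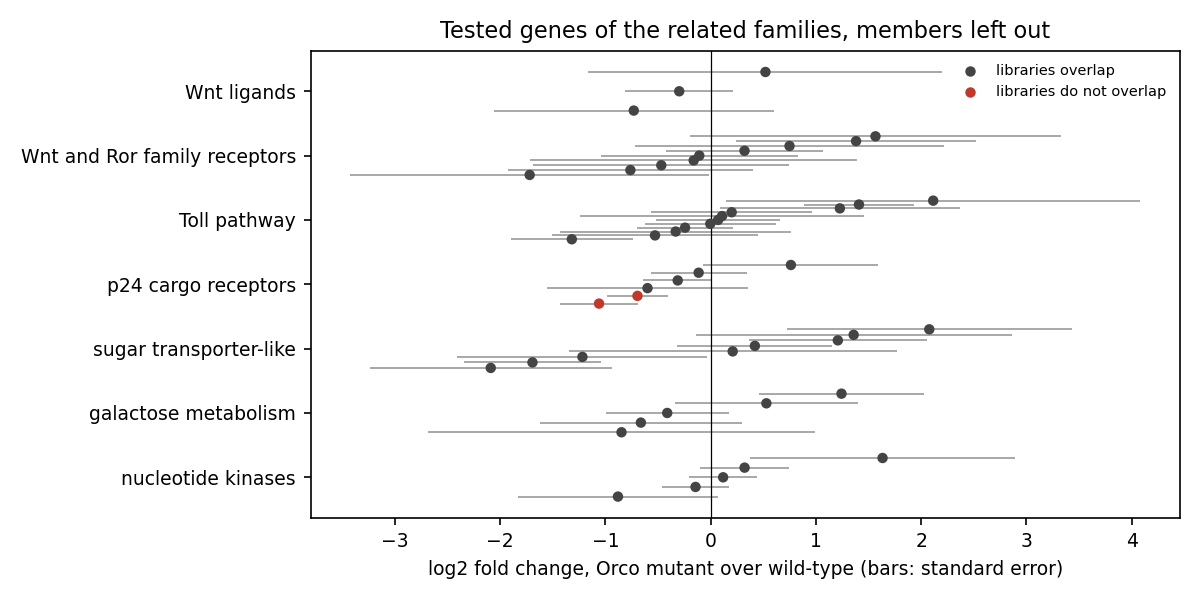
Log2 fold change (*Orco* mutant over wild-type) with its standard error for the tested genes of the 7 lists, the 9 genes left out, with a list per band and red points where the libraries do not overlap. The points lie on both sides of 0 in every list, and the 2 red points are *eca* and *bai*.

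The gene most like each of the 9 across libraries was found by Pearson's correlation of log2(CPM + 0.5) over the 9 libraries, which share the genotype difference that chose the genes, so the values are a description. *Orco* itself was most like *CG10467* (r = 0.99) and *p24-2* (r = 0.98). *CG30116* was most like *wntD* (r = 0.95) at 4.22 ± 2.03 CPM in the mutant and 0.0558 ± 0.112 CPM in the wild-type. *nerfin-1*, which encodes a zinc-finger transcription factor of developing neurons, was most like *Nrk* (r = 0.97), with 92, 522, 12, 145 and 232 counts in the mutant libraries, against 1, 7, 1 and 0 in the wild-type libraries. Both were lowest in mutant library 3 and highest in library 5 in CPM. For the graded genes the most alike were *pst* for *CG34337*, *Tsp42Ef* for *CG14455*, *IM33* for *CG1213*, *CG10031* for *CG5863* and *ND-13A*, a complex I subunit gene, for *Adk1* (r = 0.96 to 0.97).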

How the data were processed

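RNA was measured in 5 *Orco* mutant and 4 wild-type samples. The authors removed reads holding adapters (cutadapt 1.9.1) and assigned the rest to FlyBase transcripts (kallisto 0.43.0), and tximport gave gene values. What they deposited are estimated counts without normalization. Smart-seq2 keeps no strand, so reads within the bases that overlapping genes share cannot be told apart by strand. The authors left out 1 more mutant sample because it had few reads, and it was not used here.

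Estimated counts were rounded, filtered with filterByExpr (minimum count 10, minimum total 15), scaled with TMM and compared with edgeR 4.0.16 in R 4.3.3, with Benjamini-Hochberg adjusted p under 0.05 over 8160 genes. The common biological coefficient of variation was 0.996. Log2 fold changes of the 5 graded genes come from this fit. Each SE was derived from the test, as the unshrunken log2 fold change divided by the square root of the F statistic. Counts of 0 were read against a floor of 3 counts, which covers counting error only. The fold limits of the on/off genes used counts and scaled library sizes summed over each group, not the mean CPM. They therefore leave out the spread between libraries. Smart-seq2 does not mark single molecules. Positions and transcript lengths come from the Ensembl annotation of Release 6, which matched 17224 of 17421 genes.

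The members and lists were chosen with earlier results of these data known. The named genes were the 9 members, *Orco*, the most alike gene of each member, the lowest p of each list, list or neighbouring genes with separated libraries, and the genes at the border of the rule. *CG10469*, *CG1208*, *otk2*, *wg* and *CG11368* were named after their values were seen. Alternatives were other scalings and filters, rRNA genes left out, DESeq2 1.42.0, the replicate number as a block and leaving out each library.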

Additional observations from a re-analysis of the deposited data

Results flagged for a closer look

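In 2 of 14 groups of libraries examined for the 9 genes, 1 library stood far from the others, by Dixon's criterion, which flags about 1 in 20 groups by chance. *CG14455* in wild-type library 1 was at 467 CPM, with the other wild-type libraries at 993 to 1057 CPM. *CG1213* in the same library was at 350 CPM, with the others at 178 to 195 CPM. Wild-type library 1 was thus the low one for *CG14455* and the high one for *CG1213*.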

How the results depend on the processing

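The 5 graded genes kept a lower level in the mutant under all 16 refitted alternatives, with log2 fold changes of -4.06 to -3.54 for *CG34337*, -3.13 to -2.70 for *CG14455*, -3.25 to -2.43 for *CG1213*, -3.87 to -2.73 for *CG5863* and -2.05 to -1.67 for *Adk1*. After length centring, which gives differences of mean log2 CPM, *Adk1* was at -1.61, against -1.91 without it. All 9 genes stayed separated wherever they passed the filter, except *Adk1* after length centring. The separation chose these genes, and leaving out a library can rarely undo it, so nothing is read from this. Of the 9 genes, 3 (*CG10467*, *p24-2* and *Nrk*) failed the filter of 10 counts in 5 libraries. *CG10467* and *p24-2* have counts in 4 libraries only, so they could not pass it at any level. *Nrk* also failed the default filter without mutant library 1, 2 or 4.

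Over all genes, 0 were called higher and 3 lower (*Orco*, *CG34337* and *CG14455*) with edgeR, with 180 and 225 at an unadjusted p under 0.05. *CG34337* and *CG14455* were chosen on the same values, so nothing is read from their calls. DESeq2 called 43 higher and 61 lower, and no filter gave 1 higher. Without 1 library the count was 0 to 1 higher and 1 to 3 lower, and 1 lower without mutant library 2, 3 or 4 or wild-type library 2, 3 or 4. Separated genes then numbered 125 to 221 higher and 263 to 406 lower, as fewer libraries separate more easily, and separated neighbours 7 to 10. The most came without mutant library 5 (221 higher) and wild-type library 1 (406 lower). With the replicate number as a block 1 gene was called higher and 3 lower. Same-numbered libraries did not deviate together (correlations of -0.099 to 0.028 over 4 pairs). Promoter motifs were not run, as no sequence was used here. For the on/off genes depth sets the limit, since a count of 0 allows up to 0.827 CPM in a mutant library.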
